A study of Mus musculus with 6 samples.

Results

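The high mobility group (HMG) genes examined here were the 9 genes of the HMGN, HMGA and HMGB families Hmgn1, Hmgn2, Hmgn3, Hmgn5, Hmga1, Hmga2, Hmgb1, Hmgb2 and Hmgb3, taken by gene symbol from a table of 19446 genes. The family was selected on its CharmeKO against WT differences in these same libraries, with earlier results known, so those differences are given as a description. RNA sequencing was performed on cardiac fibroblasts (CFs) cultured from C57BL/6J mice of 5 weeks, with 3 wild-type (WT) libraries and 3 CharmeKO libraries. In CharmeKO animals a polyA signal inserted into the Charme locus ends the transcript of Charme, a long non-coding RNA of heart muscle. By the study's methods, each culture grew out of atrial tissue pooled from 6 littermates over 2 weeks on fibronectin in medium rich in serum. The comparison of the genotypes asked which transcripts of resident CFs differ when Charme is lost from the animal. The Charme transcript itself was not analysed here, so the genotype labels were not checked against it.

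HMG proteins are small, abundant, non-histone proteins of chromatin. HMGN proteins bind inside the nucleosome and loosen the fibre that linker histones compact, HMGA proteins bend AT-rich DNA through their AT hooks, and HMGB proteins bend DNA with their HMG boxes. HMGA2 is a chromatin protein of fetal growth that is mostly silent in adult tissue and returns in proliferating cells. HMGB1 can also leave the cell and act as an alarm signal.

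The 6 libraries held between 38330019 and 46797446 reads assigned to genes. Values are given as normalised reads, that is, a gene's reads scaled by the library's size factor, and differences as CharmeKO minus WT on the log2(value + 1) scale. The smooth muscle and pericyte markers summed to between 3157 and 26475 normalised reads in WT and to between 708 and 2614 in CharmeKO. WT 3 held the highest sum, and the sums did not overlap. All 9 genes of the list were lower in CharmeKO by their log2 difference. Gene by gene, 2 of the 9 did not overlap between the genotypes, beside 4.11% of all genes tested. Xist, the transcript of the inactive X chromosome, ranged from 9850.0 to 28789.8 in WT and from 7.87 to 8126 in CharmeKO. The Y-linked Ddx3y stood at 2081, 2583 and 92.3 in WT and at 2623, 3204 and 3060 in CharmeKO. Of 5 genes tied to sex, 1 was lower and 4 were higher in CharmeKO. Of these, 3 did not overlap between the genotypes, beside 4.11% of all genes tested. Transcripts tied to sex thus differed between the pooled cultures and also between the genotypes. All 10 fibroblast markers were measured, led by Col1a1, whereas macrophage and haematopoietic markers summed to between 1033 and 18407 normalised reads without a split by genotype. What part the smooth muscle markers or sex had in the values below was not tested. In bulk RNA, fewer cells of a type and less RNA per cell cannot be told apart.

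Hmgn2 had the lowest p-value of the HMG genes, and it has a near-identical copy in the genome, so its sequence is shown first. Hmgn2 lies on chromosome 4 (133964738 to 133968650, minus strand, GRCm38) and is spliced, while Hmgn2-ps (ENSMUSG00000070713) is a single exon on chromosome 8 (72304110 to 72305260, minus strand), annotated as protein coding in GENCODE M21 under the name Gm10282. The coding sequence of 273 bases, stop codon included, was the same in both transcripts with 0 differences. It is printed here because a read lying within it has the same bases in either transcript.
Hmgn2 and Hmgn2-ps: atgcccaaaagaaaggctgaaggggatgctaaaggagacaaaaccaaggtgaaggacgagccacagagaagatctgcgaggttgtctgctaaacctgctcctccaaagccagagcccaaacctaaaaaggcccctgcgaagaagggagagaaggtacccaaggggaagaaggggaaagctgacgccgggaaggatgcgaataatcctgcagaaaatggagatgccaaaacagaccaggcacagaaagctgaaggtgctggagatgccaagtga
Over 1151 aligned columns, 1143 were identical (99.3%). The 6 substitutions all lay after the stop codon, which ends at base 465 of the Hmgn2 transcript. Counted from 1 at the 5′ end of that transcript, with the Hmgn2 base first, they were C681G, A689C, G779A, A817G, T895C and T995C, and the remaining difference was 1 gap of 2 bases. Stretches of 27 bases around 4 of these positions show, in capitals, the bases that differ between the genes.
Hmgn2 at 681: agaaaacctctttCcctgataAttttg
Hmgn2-ps at 681: agaaaacctctttGcctgataCttttg
Hmgn2 at 817: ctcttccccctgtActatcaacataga
Hmgn2-ps at 817: ctcttccccctgtGctatcaacataga
Hmgn2 at 995: tgataattctgccTaaaagtcagggtc
Hmgn2-ps at 995: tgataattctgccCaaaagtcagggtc
Of the windows of 100 bases in the Hmgn2 transcript, 47.0% were found unchanged in the copy, and of those in the copy 52.1% were found in Hmgn2. At 50 bases these shares were 67.1% and 74.0%. The counting method of the study takes only reads that map to 1 place, so reads that map equally well to both genes are missing from both values. The windows compare spliced transcripts, and how reads across an exon junction of Hmgn2 were placed was not tested. Over all annotated exons of Hmgn2, which its count covers, 17.0% of the windows of 100 bases were found in another annotated gene.

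Hmgn2, which encodes the most conserved nucleosome-binding HMGN protein, was lower in CharmeKO CFs. It stood at 1109, 1820.4 and 1667 normalised reads in WT 1, 2 and 3 and at 547, 646 and 726 in CharmeKO 1, 2 and 3. Every CharmeKO library lay below every WT library, with means of 1532 ± 374 and 639.7 ± 89.7 (SD, n = 3 each). The log2 difference was -1.24 (SE 0.245, 95% interval -1.82 to -0.65), which puts CharmeKO at 42.4% of WT. Between libraries of the same replicate number it was -1.02, -1.49 and -1.20. With limma, the adjusted p over all 15948 genes tested was 0.9999, and no gene of the table passed 0.05. DESeq2 on the recovered reads gave Hmgn2 an adjusted p of 0.0264 and, with the replicate number as a block, of 4.15e-07. With the same block, the adjusted p of Hmgn2 was 0.800 in limma and 0.839 in edgeR, so the methods differed. DESeq2 called 8 genes in all (0.0502% of those tested) and 64 with the block (0.401%), and Hmgn2 was the 1 HMG gene among them each time.

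Hmgn2-ps moved the other way. It stood at 268, 242 and 223 normalised reads in WT and at 357, 473 and 627 in CharmeKO, so that the groups again did not overlap. Its log2 difference was 0.95 (SE 0.278, 95% interval 0.29 to 1.62), and its adjusted p was 0.9999 with limma and 0.637 with DESeq2. Of the reads assigned to either gene, the copy took 19.5%, 11.7% and 11.8% in the WT libraries and 39.5%, 42.3% and 46.3% in the CharmeKO libraries. The lowest CharmeKO share had a 95% Wilson interval of 36.4% to 42.6% and the highest WT share 17.5% to 21.6%, intervals that cover counting error only. The mean share was 14.3% ± 4.43 in WT and 42.7% ± 3.45 in CharmeKO (SD, n = 3 each).

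**Figure D1:**
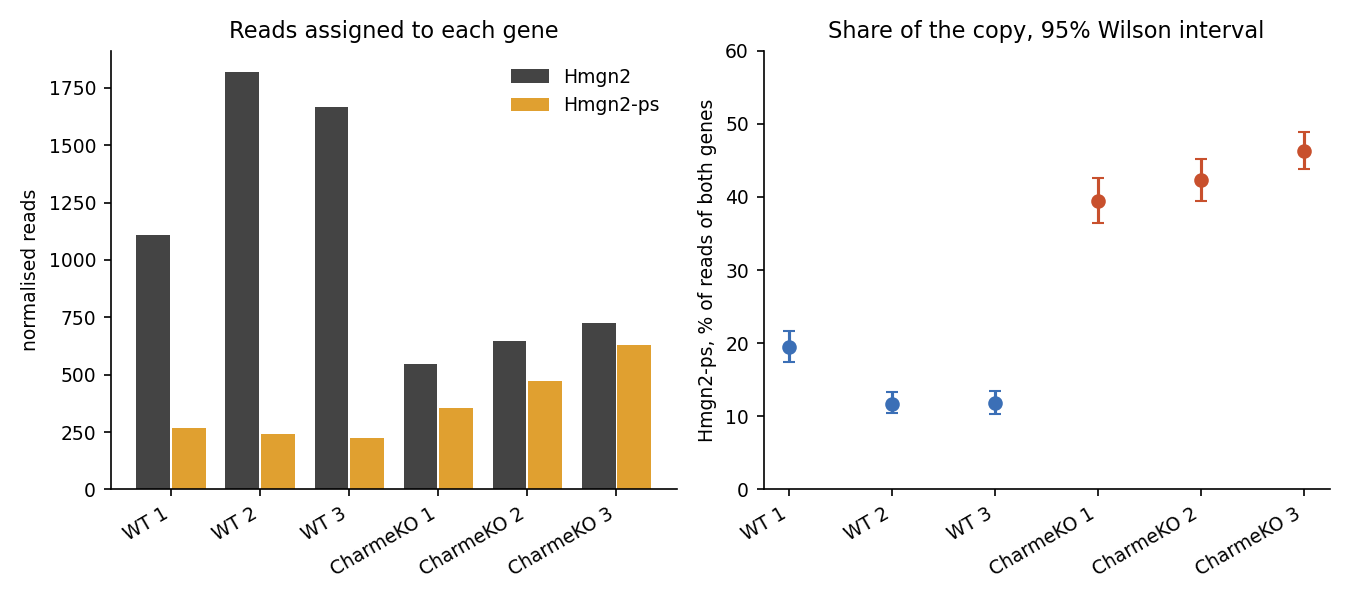
Normalised reads of Hmgn2 and Hmgn2-ps in each library (bars, 1 library each) and the share of Hmgn2-ps in the reads of both genes (points, with 95% Wilson intervals for counting error). Hmgn2 is lower and Hmgn2-ps higher in each CharmeKO library, and the share of the copy goes from between 11.7% and 19.5% to between 39.5% and 46.3%.

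When the reads of both genes were added, the sum stood at 1377, 2063 and 1889.6 normalised reads in WT and at 904, 1119 and 1353 in CharmeKO. The groups still did not overlap, though CharmeKO 3 came close to WT 1. The log2 difference of the sum was -0.66 (SE 0.236, 95% interval -1.22 to -0.09), so CharmeKO stood at 63.4% of WT, against 42.4% for Hmgn2 alone. What part the assignment of reads between near-identical sequences had in either difference was not tested. Other processed copies of Hmgn2 took few reads, at most 35 in a library, and did not share a direction. Gm10357 had 10, 7 and 0 reads in WT and 13, 35 and 34 in CharmeKO, and Gm10182 had 0, 0 and 0 against 4, 5 and 11. Hmgn2-ps1 had 3, 7 and 5 reads in WT and 0, 4 and 1 in CharmeKO, and Gm6750 had 2, 4 and 1 against 0, 2 and 1. Dhdds, the gene 378 bases from Hmgn2, stood at 1395.5, 1270.6 and 1279.9 normalised reads in WT and at 1342, 922 and 1209 in CharmeKO, so its groups overlapped.

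Hmgn1 (chromosome 16, 96120618 to 96127729, minus strand) encodes the nucleosome-binding paralogue that shares its domain with HMGN2, and it was the other HMG gene without overlap between genotypes. It stood at 9186, 7497 and 9702 normalised reads in WT and at 10206, 10820.3 and 10651 in CharmeKO. All CharmeKO values lay above all WT values, but the gap between the highest WT and the lowest CharmeKO library was narrow. The log2 difference was 0.27 (SE 0.168, 95% interval -0.13 to 0.68), with means of 8795 ± 1153 and 10559 ± 317 (SD, n = 3 each). The ratio of Hmgn1 to Hmgn2 reads was 8.28, 4.12 and 5.82 in WT and 18.7, 16.8 and 14.7 in CharmeKO. Genes without overlap between the groups made up 4.11% of those tested, 1.98% lower and 2.14% higher in CharmeKO, beside 2 of the 9 HMG genes.

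Hmgn3 (chromosome 9, 83109948 to 83146685, minus strand), an HMGN gene known from the eye and pancreatic islets, varied least. Its values were 821, 813 and 843 normalised reads in WT and 884, 796 and 949 in CharmeKO, and its log2 difference was 0.08 (SE 0.164). The groups overlapped, and the whole range over the 6 libraries was 0.25 on the log2 scale. Hmgn5 (X chromosome, 109004534 to 109013404, minus strand), whose protein has a long acidic tail and counteracts linker histone H1, was the least abundant HMGN gene. It stood at 148, 257 and 229 normalised reads in WT and at 135, 225 and 177 in CharmeKO. The groups overlapped, yet each CharmeKO library was below the WT library of the same number, by -0.13, -0.19 and -0.36, around a log2 difference of -0.23 (SE 0.349).

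**Figure D2:**
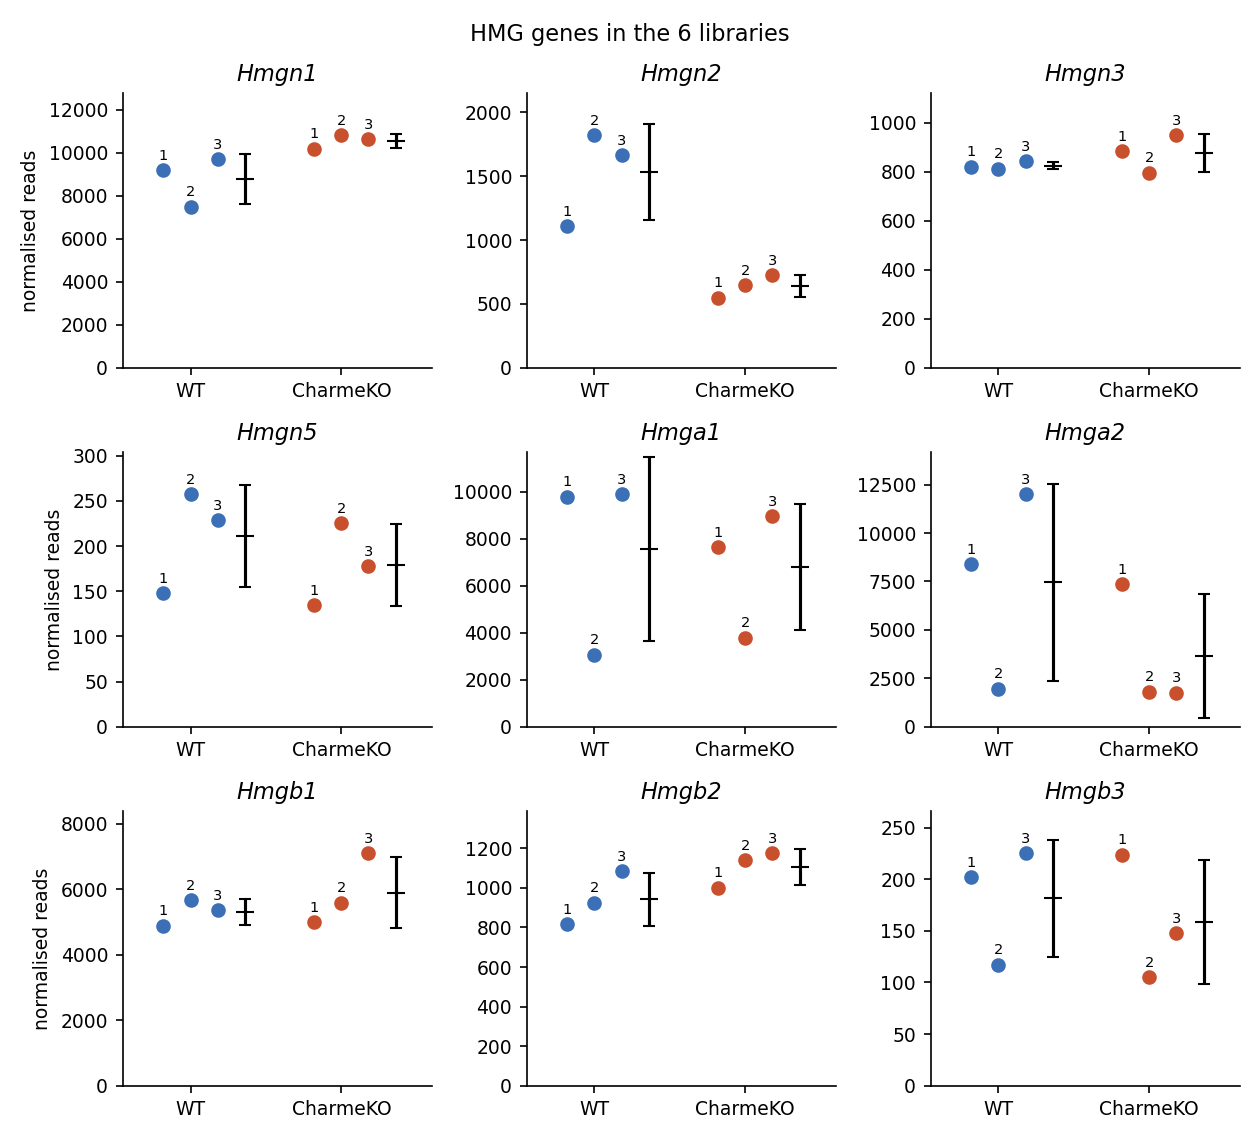
Normalised reads of the 9 HMG genes in each library (points, numbered by replicate) with the mean and SD of each group (n = 3, black). The y axes start at 0 and differ between genes. Hmgn2 and Hmgn1 are the genes whose groups do not overlap, and Hmga1 is low in both libraries numbered 2.

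Hmga1 (chromosome 17, 27556497 to 27563674, plus strand), an AT-hook gene of proliferating cells, varied mainly between replicate numbers. It stood at 9794, 3059 and 9891 normalised reads in WT and at 7638, 3778 and 8951 in CharmeKO. The libraries numbered 2 were low in both genotypes, the other 4 were at least 7638, and the groups overlapped. The log2 difference was -0.07 (SE 0.548, 95% interval -1.38 to 1.25), and its sign turned when some single libraries, or both libraries numbered 1, were left out. The 32 genes of a proliferation list summed to 56079.7, 26278 and 61231 normalised reads in WT and to 56499, 27363 and 58115 in CharmeKO, so these too were low in the libraries numbered 2. Mki67, the gene of the proliferation antigen Ki-67, stood at 3994, 1478 and 5916 in WT and at 3832, 1213 and 5929.9 in CharmeKO.

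Hmga2 (chromosome 10, 120361275 to 120476469, minus strand), the AT-hook gene of fetal growth and a classical target of the let-7 microRNAs, had the widest spread of the HMG genes. It stood at 8394, 1954 and 12001 normalised reads in WT and at 7356, 1812 and 1762 in CharmeKO. The groups overlapped, since WT 2 was as low as CharmeKO 2 and CharmeKO 1 almost as high as WT 1. By replicate number the log2 differences were -0.19, -0.11 and -2.77, so the mean of -1.02 (SE 0.831, 95% interval -3.01 to 0.97) rested on the libraries numbered 3. Without WT 3 it was -0.50, and without CharmeKO 3 it was -0.67. With both libraries numbered 3 left out and the replicate block kept, an alternative added after seeing the data, it was -0.15. WT 3 was also the library with the high smooth muscle markers and with the lowest Ddx3y (92.3, against 3060 in CharmeKO 3). CharmeKO 3 held the fewest macrophage markers. What part these traits had in the Hmga2 values was not tested. The proliferation genes did not follow Hmga2 in CharmeKO 3, where they summed to 58115. The ratio of Hmga1 to Hmga2 reads was 1.17, 1.57 and 0.824 in WT and 1.04, 2.09 and 5.08 in CharmeKO.

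**Figure D3:**
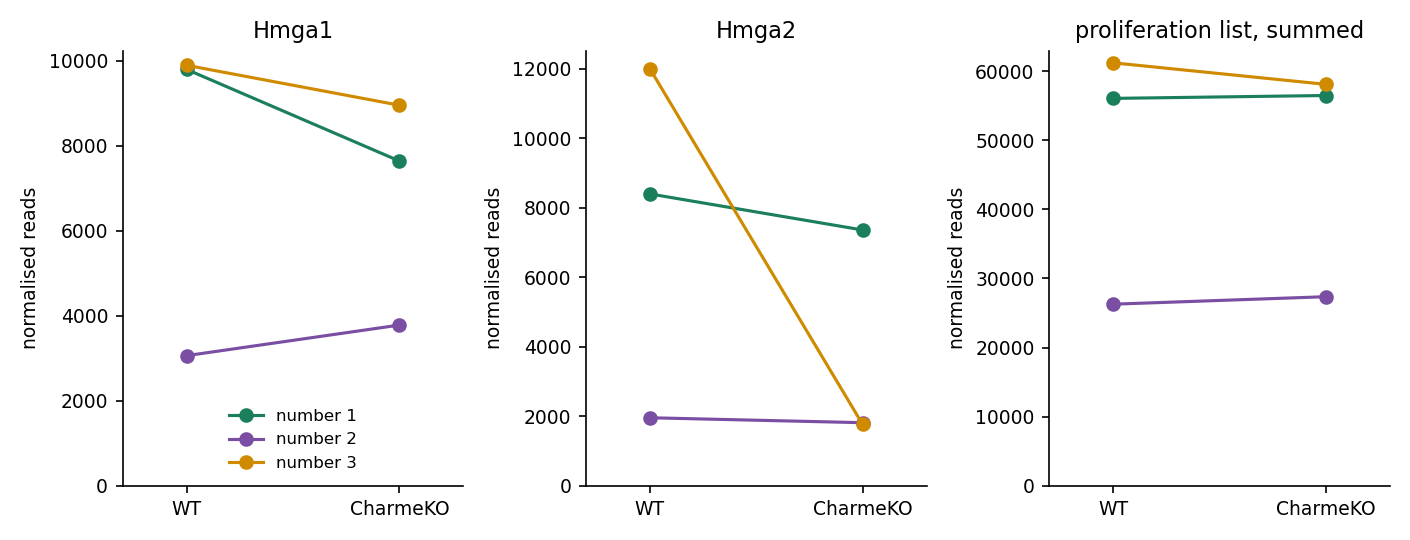
Normalised reads of Hmga1, Hmga2 and the summed proliferation list (y axes, from 0) in WT and CharmeKO, with a line joining libraries of the same replicate number. Hmga1 and the proliferation sum are low in both libraries numbered 2, whereas Hmga2 drops from 12001 to 1762 between the libraries numbered 3.

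The other genes of the let-7 and fetal growth list varied between libraries without a call by limma in either direction, as 7 of the 13 tested were lower and 6 higher in CharmeKO. Igf2, the imprinted fetal growth factor, stood at 22.7, 85.4 and 99.97 normalised reads in WT and at 32.7, 37789 and 220.0 in CharmeKO, so a single library was high. Igf2bp2, an RNA-binding partner that HMGA2 is known to activate, had a log2 difference of 0.23 (SE 0.222). Dicer1, the enzyme that cuts microRNA precursors, stood at 2831, 2576 and 2705 normalised reads in WT and at 2529, 1916 and 2327 in CharmeKO. Its groups did not overlap, by a narrow gap, and its log2 difference was -0.27 (SE 0.163). Igf2bp1, another RNA-binding gene of fetal growth, named after its values were seen, stood at 617, 895 and 1263 normalised reads in WT and at 505, 659 and 67.8 in CharmeKO. Its log2 difference was -1.64 (SE 0.855), and as for Hmga2 the widest gap, -4.20, was between the libraries numbered 3. H19, named after its values were seen, was the gene of this list that DESeq2 called with the replicate block, at 5.91, 173 and 105 normalised reads in WT and 9.61, 2157 and 471 in CharmeKO.

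Hmgb1 (chromosome 5, 149046702 to 149184489, minus strand), the most abundant HMG-box gene in many tissues, stood at 4882, 5656 and 5351 normalised reads in WT and at 4998, 5588 and 7095 in CharmeKO. CharmeKO 3 was the high library and the other 5 lay between 4882 and 5656, so the groups overlapped. The log2 difference was 0.14 (SE 0.183), and it was -0.00039 without CharmeKO 3. Hmgb2 (chromosome 8, 57511907 to 57515999, plus strand), a paralogue tied to cell division and to adult stem cells, stood at 817, 925 and 1084 normalised reads in WT and at 1001, 1139 and 1175 in CharmeKO. The groups overlapped through WT 3, though each CharmeKO library was above the WT library of the same number, by 0.29, 0.30 and 0.12, with a log2 difference of 0.24 (SE 0.182). Hmgb3 (X chromosome, 71555918 to 71560676, plus strand), known from embryos and blood progenitors, stood at 202, 117 and 225 normalised reads in WT and at 224, 105 and 148 in CharmeKO. Its groups overlapped, with a log2 difference of -0.20 (SE 0.417) and no common direction by replicate number.

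Of the genes that act with HMGB1 outside the cell, none of 10 tested passed the test with limma, where 6 were lower and 4 higher. Cxcl12, the chemokine that forms a complex with HMGB1, was the most abundant, at 37411, 162300.0 and 71757 normalised reads in WT and 53186, 275356 and 316987 in CharmeKO. Its groups overlapped, with a log2 difference of 1.14 (SE 0.855). Among linker histones, the proteins that HMGN proteins displace, 4 of 7 were lower and 3 higher, with a median log2 difference of -0.04, and H1f0 stood at 3506, 6854 and 3503 in WT and 3648, 7167 and 3643 in CharmeKO, highest in both libraries numbered 2. Of 19 other HMG-box genes of chromatin, 10 were lower and 9 higher, with a median of -0.02, and Ssrp1, a subunit of the histone chaperone FACT, differed by 0.02 (SE 0.193). Of 23 genes of chromatin architecture, such as Lmna and Hnrnpu, 9 were lower and 14 higher, with a median of 0.01. None of these lists held a gene past the adjusted threshold with limma or past that of DESeq2 with the replicate block.

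Over the 9 HMG genes, 5 were lower and 4 higher in CharmeKO, with a median log2 difference of -0.07 beside 0.0022 over all genes tested. All 9 passed the filter on low counts, the smallest value being 107 reads. With limma, 0 passed the adjusted threshold (0.0% of all genes), and 1, Hmgn2, had an unadjusted p under 0.05, beside 0.897% of all genes. The genes lower in all 3 pairs of equal number were Hmgn2, Hmgn5 and Hmga2, and those higher were Hmgn1 and Hmgb2. Over all genes tested, 14.0% were lower and 16.4% higher in all 3 pairs.

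**Figure D4:**
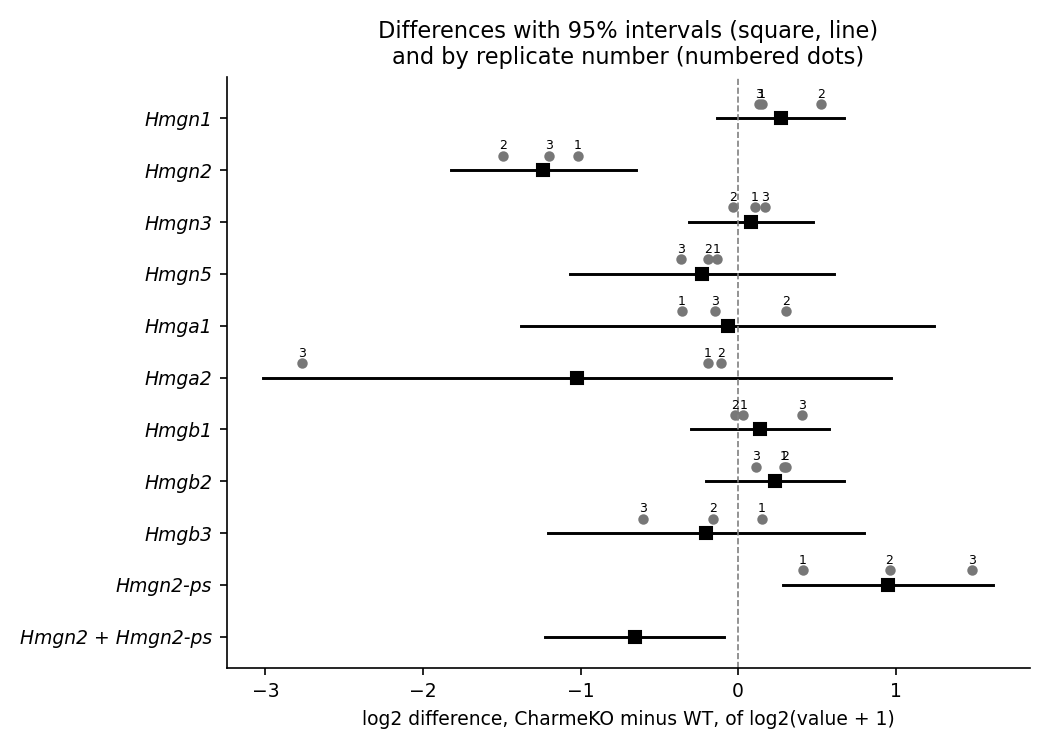
Log2 difference between CharmeKO and WT (x axis, CharmeKO minus WT of log2(value + 1)) for the 9 HMG genes, Hmgn2-ps and the sum of Hmgn2 and Hmgn2-ps (squares) with 95% limma intervals (lines) and the difference for each replicate number (numbered dots, not drawn for the sum). The intervals of Hmgn2 (-1.82 to -0.65), Hmgn2-ps (0.29 to 1.62) and their sum (-1.22 to -0.09) leave out 0, and that of Hmga2 is the widest.

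In the whole table, 67.7% of the pooled sum of squares over the 6 libraries went with the replicate number, 10.6% with genotype and 21.7% with neither. The variation of the HMG genes also lay mostly between replicate numbers, but less so by gene. Their median share with the number was 53.1%, beside 73.8% over all genes tested. Hmgn2 and Hmgn1 were the exceptions, with 86.0% and 57.9% of their variation between genotypes. Hmga1 was the opposite case, at 0.236% between genotypes and 95.6% between numbers. Hmgn5 (86.7%) and Hmgb3 (82.1%), both on the X chromosome, also varied mostly with the number, as did 7 of the 9 genes. The range over the libraries reached at least 1 on the log2 scale for Hmgn2, Hmga1, Hmga2 and Hmgb3, beside 53.1% of all genes tested.

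**Figure D5:**
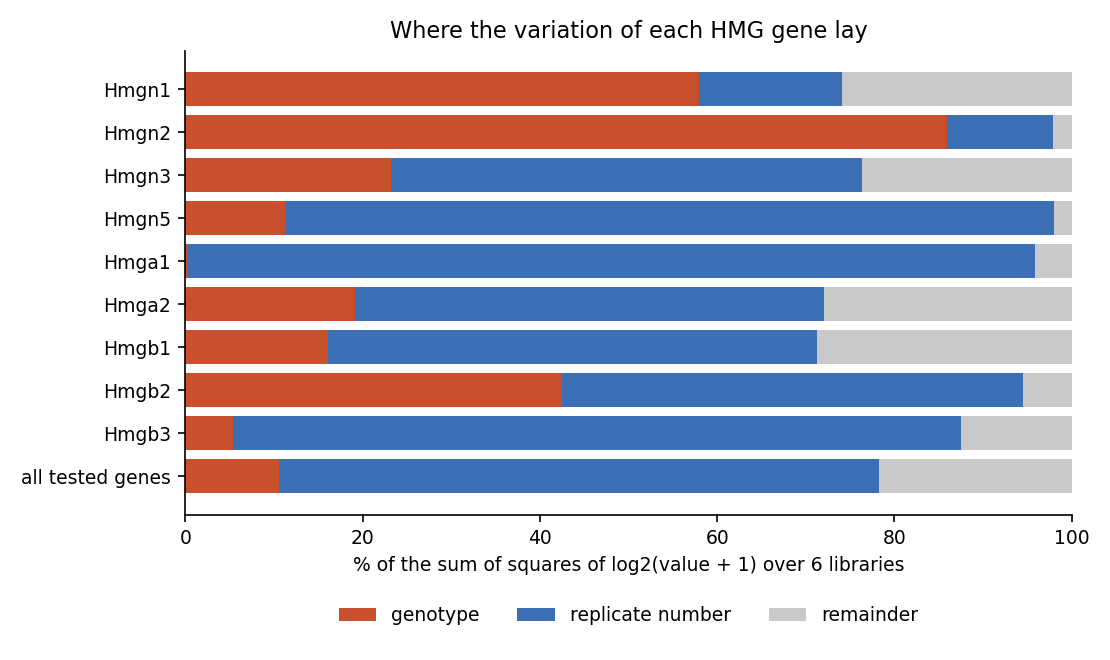
Share of the sum of squares of log2(value + 1) over the 6 libraries (x axis, percent) that lay between genotypes, between replicate numbers and in the remainder, for each HMG gene and for all tested genes together. Genotype takes 86.0% for Hmgn2 and 0.236% for Hmga1, beside 10.6% over all genes.

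Per kilobase of annotated exon, Hmga1 and Hmgn1 were the most abundant HMG genes, with means of 3381 ± 1429 and 3004 ± 381 normalised reads per kilobase (SD over 6 libraries). Their ranges overlapped, from 1439.5 to 4654 for Hmga1 and from 2328 to 3359 for Hmgn1. Hmgb1 came next at 1114 ± 159, its range of 972 to 1413 lying below that of Hmgn1. Hmga2 (819 ± 641), Hmgn3 (455 ± 30.3), Hmgn2 (355 ± 178) and Hmgb2 (341 ± 45.4) followed, each overlapping its neighbour in this order. Hmgn5 (101 ± 25.4) and Hmgb3 (76.2 ± 24.1) were lowest, overlapped each other and lay below the range of Hmgb2. Per kilobase of coding sequence the order changed, with Hmgn1 first and Hmga1, Hmga2 and Hmgb1 after it, so the levels of neighbouring genes depend on the length used. Among 15908 genes with an exon length, Hmga1 ranked 491 and Hmgb3 9909.

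Near-identical copies bear on several of these levels. Windows of 100 bases found also in another annotated gene made up 40.1% for Hmga1, 18.1% for Hmgb1, 16.7% for Hmgb2, 13.3% for Hmgn5 and 12.7% for Hmgb3, but only 0.650% for Hmga2 and 1.61% for Hmgn1. Hmga1b, a retrocopy of Hmga1 on chromosome 11, took between 0.550% and 0.775% of the reads of both genes, without the split by genotype seen for Hmgn2-ps. Windows of Hmgb1 were shared with 52 other annotated genes, so reads from those windows may be missing from its count. Genes on the opposite strand overlap Hmgn3, Hmga1, Hmga2 and Hmgb1, and the study counted reads by strand. On the same strand, Gm23322 overlaps Hmgn5, Mir763 overlaps Hmga2, and Gm8615 and Mm2pr overlap Hmgb1. Counting by strand does not separate these, and their part in the counts was not tested.

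For the 4 HMG genes with a range of at least 1, the genes with the closest pattern were sought among 11582 genes as the smallest root mean square distance of centred log2 values over the 6 libraries. For Hmgn2 these were Atp2b4 (0.246), Itga1 (0.263) and Syne1 (0.264), all further off than the nearest genes of Hmga1, which were Mcm5 (0.105), Exo1 (0.120) and Ccnd1 (0.120). Atp2b4, a calcium pump of the plasma membrane, stood at 268, 566 and 714 normalised reads in WT and at 174, 215 and 258 in CharmeKO. Mcm5, a subunit of the replicative helicase, stood at 1428, 446 and 1445 in WT and at 1359, 597 and 1446 in CharmeKO. Hmgb3 lay nearest to Arpc5 (0.0452), Inpp5a (0.0588) and Myl6 (0.0653).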

How the data were processed

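RNA had been converted into stranded poly(A) libraries and sequenced by the study. Per its methods and labels, reads were aligned with STAR, counted per gene on the reverse strand with Ensembl release 87 models, and normalised with DESeq2. The labels name GRCm39 and, beside it, the human build GRCh38. Coordinates given here are GRCm38 from GENCODE M21, since the table holds none. Which models were used was not tested. The deposited values are a signal, gene counts that the authors divided by a size factor per library. Dividing by the smallest step of each column recovered whole reads for 100.0% of 116676 values (tolerance 1e-06), with totals of 38330019 to 46797446 per library. Unmapped or multi-mapped reads were not analysed here, and Wilson intervals cover counting error only, whereas limma intervals come from the spread between libraries.

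The 9 genes and the gene lists were chosen with earlier results of these data known. The filter kept 15948 of 19446 genes, those reaching 10 reads in 2 or more libraries. These were tested with limma 3.58.1 (R 4.3.3) on log2(value + 1), letting the prior variance follow the mean, genotype as the factor, two-sided, and Benjamini-Hochberg adjustment at 0.05. A fold on this scale understates changes of low genes. edgeR 4.0.16 and DESeq2 1.42.0 on the recovered reads were alternatives, beside other pseudocounts, filters and scalings and leaving out each library. The scripts were tested on simulated data. The labels do not name the cultures, but the study's methods speak of separate primary isolations, and transcripts tied to sex differed between libraries of a group. P-values measure the spread between these libraries. Replicate numbers were taken to pair libraries, because deviations from the group means of libraries with the same number correlated at 0.762, 0.514 and 0.217 across genes, which are not independent, all above 0.1. Other pairs lay between -0.643 and 0.222. The highest of these, WT 2 with CharmeKO 3, was above the pair numbered 3, so the correlations do not settle that pair. Differences by replicate number, variance shares by number and values with the block depend on this pairing. Named beside the 9 genes were HMG copies over 100 reads, up to 4 of the most abundant genes of each list, and the 3 nearest genes of each HMG gene with a log2 range of at least 1, those of Hmga2 not reported here. Hmgn2-ps was added to Hmgn2 after its values were seen, as were H19, Igf2bp1 and the smaller copies named. Sequences are from GENCODE M21 transcripts.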

Additional observations from a re-analysis of the deposited data

How the results depend on the processing

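Of 21 alternatives to the limma fit, 19 called 0 genes, as limma did. Most of these were the same limma fit with other settings or fewer libraries, so they are not separate tests. At an unadjusted p under 0.05, limma had 143 genes and edgeR 158, or 857 and 768 with the replicate block. DESeq2 called 8 genes, and DESeq2 with the replicate block 64, each with 1 HMG gene, Hmgn2. The block, which takes the replicate number as a pairing, called 0 genes in limma and in edgeR and left the log2 difference of Hmgn2 at -1.24 and -1.23. The SEs and intervals given above are from limma without the block. With it, the limma SE was smaller for each HMG gene, such as 0.133 against 0.245 for Hmgn2. It was 0.154 against 0.548 for Hmga1 and 0.179 against 0.349 for Hmgn5. Leaving out single libraries gave 0 calls each time, with log2 differences of -1.45 to -1.10 for Hmgn2, 0.16 to 0.35 for Hmgn1, 0.02 to 0.15 for Hmgn3, -0.47 to -0.04 for Hmgn5, -0.63 to 0.31 for Hmga1, -1.81 to -0.50 for Hmga2, -0.00039 to 0.25 for Hmgb1, 0.14 to 0.34 for Hmgb2 and -0.49 to 0.058 for Hmgb3. Hmga1 changed sign without WT 1 (0.21), WT 3 (0.22) or CharmeKO 2 (0.31), Hmgb3 without CharmeKO 2 (0.058) and Hmgb1 without CharmeKO 3 (-0.00039). These fits have no block and leave the replicate numbers unbalanced between the groups. With both libraries of a number left out and the replicate block kept, an alternative added after seeing the data, Hmga1 ranged from -0.25 to 0.080 and changed sign without the libraries numbered 1 (0.080), Hmgn2 ranged from -1.35 to -1.11, and Hmgb1 and Hmgb3 kept their signs, at 0.0084 to 0.22 and -0.38 to -0.0041. Under the alternatives that kept all libraries, 100 of 100 values of the HMG genes kept their direction, including the sum of Hmgn2 and Hmgn2-ps (-0.66), an alternative added after seeing the data. Other filters and the block cannot change a log2 difference in limma, so the direction of those values was fixed in advance. Scaling to unit SD left 0 of the 3 nearest genes for Hmgn2 and Hmga1, and 1 for Hmgb3. With 3 libraries a group, an exact permutation test cannot go below 0.1.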

Other observations

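Among the 8 genes that DESeq2 called without the replicate block, 3 had symbols that end as pseudogenes do (37.5%), beside 163 of the 15948 genes tested (1.02%); these genes were looked at after their values were seen. Mid1-ps1 stood at 32.5, 27.8 and 25.3 normalised reads in WT and at 121, 284 and 308 in CharmeKO. Ctdsp2-ps was higher and Tent2-ps1 lower in CharmeKO, and Cwc22, a splicing factor gene, stood at 5817, 1738 and 3409 normalised reads in WT and at 1010.5, 874 and 745 in CharmeKO. With the replicate block, 3 of 64 called genes had such a symbol (4.69%).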
